A study of Arabidopsis thaliana with 27 samples.

Results

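The comparison set whole Arabidopsis thaliana (Col-0) seedlings treated with NAE 18:2 against seedlings treated with the solvent DMSO, across all genes. The members were the 3 NAE 18:2 and the 3 DMSO whole-seedling libraries named by the sample labels, 6 of the 27 libraries of the series. The other libraries came from dissected roots and dissected cotyledons under the same treatments and from organs and seedlings under NAE 18:3. Seedlings 3 days after sowing were placed in groups of 50 in liquid half-strength Murashige and Skoog medium and received 40 µM NAE 18:2 in NAE 18:2 seedlings, or 0.2% DMSO in DMSO seedlings. The labels give a treatment of 1 h and the study's methods 1 to 3 h. Each seedling library is labelled as whole seedlings and pools several plants. Nothing in the sources used here says whether the replicates came from separate dishes or days, so p-values measure the spread between these libraries.

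N-acylethanolamines (NAEs) are fatty acid amides that plants store in seeds and break down as the seedling establishes, by hydrolysis through fatty acid amide hydrolase (FAAH) or by oxidation through lipoxygenases. NAE 18:2, the ethanolamide of linoleic acid, slows root elongation when it is supplied to young seedlings, and its action overlaps with that of abscisic acid (ABA). Plant cells that meet a foreign or reactive lipid commonly raise detoxification enzymes and exporters, and a block in mitochondrial electron transport raises alternative oxidase through transcription factors of the NAC family.

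Total counts were 31638609, 34034488 and 26954628 in NAE 18:2 seedlings replicates 1, 2 and 3, against 26436942, 24761829 and 23244896 in DMSO seedlings. NAE 18:2 replicates 1 and 3 were nearly equal. Their counts differed with a chi-square per degree of freedom of 1.91 over 19703 genes, the lowest of 351 pairs of libraries, and the next pair had 10.35. A value of 1 is sampling noise. Whether replicates 1 and 3 are 2 RNA samples or 1 sample made into 2 libraries cannot be told apart from these counts and labels. Both were kept as replicates, as the labels number them, and the study's methods state 3 biological replicates. They differed by more than sampling noise, which does not show that they are separate samples. If they are 1 sample, n = 3, the SD and the p-values for NAE 18:2 seedlings count it more than once. Results are therefore also given with their counts summed to 1 library. NAE 18:2 replicate 2 stood apart, at 136 from replicate 1 and 129 from replicate 3, while pairs of DMSO seedlings were at 16.2 to 25.1. Replicate 2 was nearer to the DMSO seedlings, at 61.1 to 64.4, and nearest to NAE 18:3 seedlings replicate 1, at 20.5. NAE 18:2 replicates 1 and 3 were both at 18.8 from NAE 18:3 seedlings replicate 3.

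The libraries also differed in their root signal. The root share of a library was taken as the median, over 738 genes found almost only in DMSO roots, of its level divided by that in DMSO roots. It was 3.59%, 19.4% and 3.42% in NAE 18:2 seedlings replicates 1, 2 and 3, against 28.7%, 32.1% and 25.6% in DMSO seedlings. All NAE 18:2 libraries lay below all DMSO libraries, and replicates 1 and 3 far below replicate 2. By the same markers, NAE 18:3 seedlings replicates 1, 2 and 3 held 12.5%, 3.20% and 3.71%. The means were 8.79% ± 9.15 and 28.8% ± 3.24 (SD, n = 3 each), and the two-sided exact permutation p was 0.1, the smallest that 3 against 3 libraries can give. The difference of -20.02 percentage points was -17.37 with NAE 18:2 replicates 1 and 3 averaged to 1 library. With the 245 root markers that NAE 18:2 left unchanged in dissected roots, the shares were 4.27%, 24.3% and 4.17% in NAE 18:2 seedlings, against 28.9%, 31.0% and 25.0% in DMSO seedlings. Over 1272 markers with a log2 ratio above 2, they were 9.745%, 26.8% and 9.63%, against 33.6%, 35.9% and 30.4% in DMSO seedlings. A mixture of the dissected organs of the same treatment gave 12.4%, 26.9% and 12.1%, against 32.6%, 37.0% and 28.7% in DMSO seedlings. Only the shares from the 738 markers were used as root share below, and they include any response of those markers to NAE 18:2. The cotyledon share, over 1037 genes found almost only in DMSO cotyledons, was 76.6%, 57.3% and 77.0% in NAE 18:2 seedlings and 63.0%, 57.7% and 68.0% in DMSO seedlings, and these groups overlapped (exact permutation p = 0.4). In such bulk libraries fewer root cells, less RNA per root cell and lower levels of the marker transcripts under NAE 18:2 cannot be told apart.

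**Figure D1:**
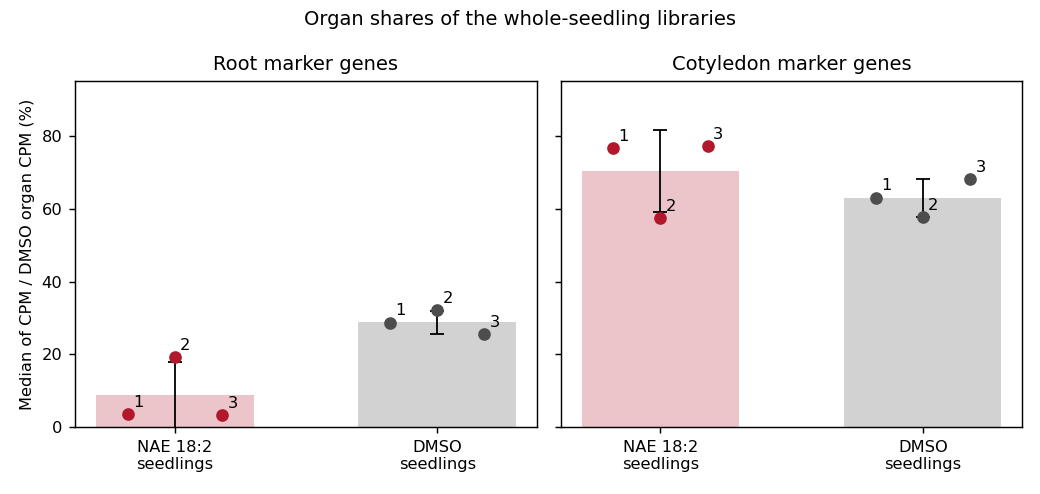
Root share (left) and cotyledon share (right) of each whole-seedling library in percent, as the median over organ marker genes of the level divided by that in the dissected DMSO organ. Points are libraries with their replicate number, bars the mean and error bars the SD (n = 3). NAE 18:2 replicates 1 and 3 held 3.59% and 3.42% root signal and replicate 2 held 19.4%, against 25.6% to 32.1% in DMSO seedlings.

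Summed markers of root hair, root cap and endodermis were lower in NAE 18:2 replicates 1 and 3 than in DMSO seedlings, to unequal degrees. The summed level of 7 root hair markers was 0.962, 19.9 and 0.792 CPM (counts scaled to library size) in NAE 18:2 seedlings and 119.8, 59.5 and 53.1 CPM in DMSO seedlings. That of 3 root cap markers was 0.148, 3.85 and 0.132 CPM, against 6.22, 4.34 and 3.67 CPM in DMSO seedlings. The 7 endodermis markers summed to 48.4, 92.5 and 51.3 CPM in NAE 18:2 seedlings and 127.9, 169.6 and 120.7 CPM in DMSO seedlings. For the 5 xylem markers the sums were 43.1, 63.4 and 44.05 CPM, against 71.0, 61.7 and 76.4 CPM in DMSO seedlings, and these overlapped. Endodermis and xylem sums thus kept a larger part of their DMSO level than root hair and root cap sums did in replicates 1 and 3. The xylem markers were, however, mostly not root-enriched. Root-enriched here means at least 4 times the level in DMSO roots of that in DMSO cotyledons, at an adjusted p under 0.01. That held for 1 of 5 xylem markers, 6 of 7 for endodermis, and all root hair and root cap markers. The 3 phloem markers summed to 60.4 to 83.2 CPM in NAE 18:2 seedlings and 50.7 to 58.8 CPM in DMSO seedlings, and the 4 guard cell markers to 36.8 to 39.0 and 26.2 to 36.2 CPM. The 6 mesophyll markers summed to 30890 to 56120 CPM in NAE 18:2 seedlings and 33120 to 41180 CPM in DMSO seedlings. Markers of root and of cotyledon were thus present in every DMSO seedling library, as its label says, while the root hair and root cap markers were near 0 in NAE 18:2 replicates 1 and 3. Seed storage and oil body transcripts, from 11 genes, were high in 1 DMSO library only, at 134 CPM in replicate 1 against 3.38 and 2.80 CPM in replicates 2 and 3, with 7.22, 30.1 and 7.44 CPM in NAE 18:2 seedlings.

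Transcripts of 141 genes rose in NAE 18:2 seedlings and those of 43 genes fell, among 20911 genes tested. Calls required a change of more than 2-fold and an adjusted p below 0.01 by the quasi-likelihood test of edgeR (Benjamini-Hochberg over all genes tested), fitted to the 9 whole-seedling libraries, and every adjusted p below comes from this tool unless DESeq2 is named. The called share was 0.674% for rises and 0.206% for falls. At an unadjusted p under 0.05, 3575 genes were higher (17.1%) and 2877 lower (13.8%). The counts depended on which libraries entered. With NAE 18:2 replicates 1 and 3 summed, 25 genes were called higher (0.118%), all of them among the 141, and 0 lower by edgeR, although 2655 were higher (12.5%) and 1231 lower (5.81%) at an unadjusted p under 0.05. DESeq2 called 1401 higher (6.17%) and 457 lower (2.01%) on the same 9 libraries, and 798 higher (3.5%) and 215 lower (0.943%) with replicates 1 and 3 summed, an alternative chosen after seeing the data. Without NAE 18:2 replicate 2, the counts were 806 higher (3.83%) and 372 lower (1.77%), and without any other single library they were 10 to 28 higher and at most 3 lower. With the root share of each library as a covariate, 28 genes were called higher (0.134%) and 0 lower by edgeR, with 1385 higher (6.62%) and 1365 lower (6.53%) at an unadjusted p under 0.05.

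**Figure D2:**
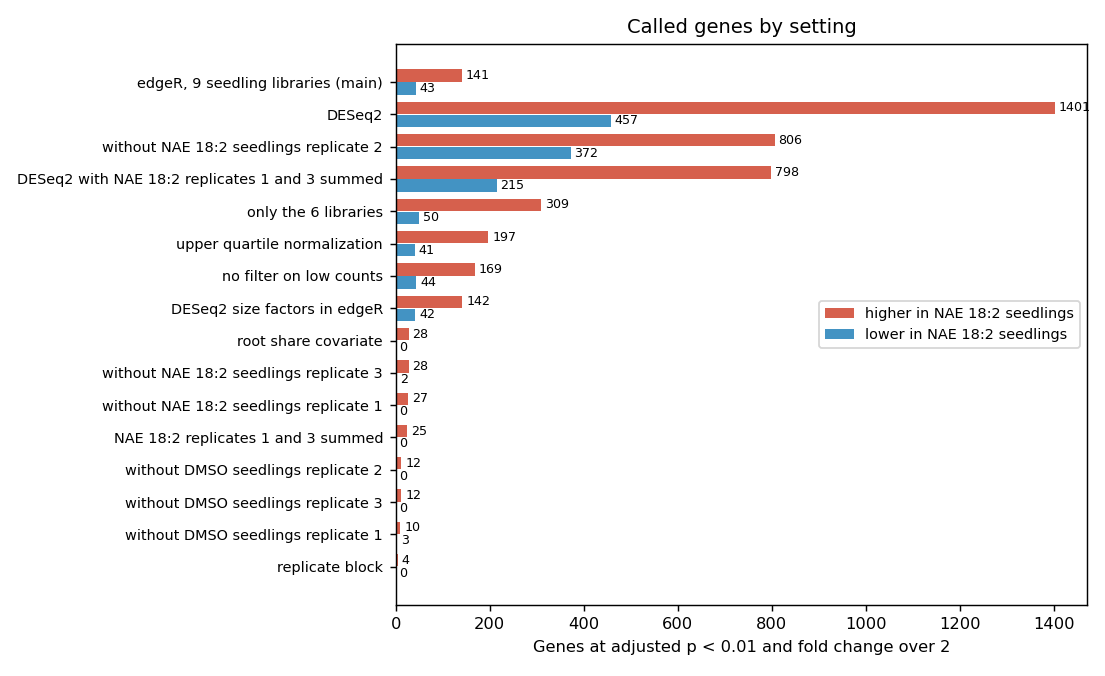
Number of genes called higher and lower in NAE 18:2 seedlings (x axis) under each setting of the fit (y axis), past the call threshold. The 141 and 43 calls of edgeR on 9 libraries became 25 and 0 with NAE 18:2 replicates 1 and 3 summed, and 806 and 372 without NAE 18:2 replicate 2.

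In most of these genes NAE 18:2 replicate 2 lay nearer to DMSO seedlings than replicates 1 and 3 did. Of the 141 genes that rose, 122 had a lower level in NAE 18:2 replicate 2 than in both other NAE 18:2 libraries, with a median ratio of 0.599 to their mean. Of the 43 genes that fell, 33 had a higher level in replicate 2 than in both others, with a median ratio of 1.43. Over all genes tested the median ratio was 1.01. A set of 7 rises was called in each of the 6 fits that left out 1 library, and no fall was. These were chosen for description after these values were seen. GLIP3 (AT1G53990) had 13.4, 11.1 and 11.6 CPM in NAE 18:2 seedlings and 1.68, 2.07 and 1.92 CPM in DMSO seedlings. YLS9 (AT2G35980), a senescence-linked gene, had 51.1, 46.0 and 56.8 CPM, against 1.02, 1.43 and 0.699 CPM in DMSO seedlings. In both genes the 3 NAE 18:2 libraries lay close together and far above DMSO seedlings, with log2 fold changes of 2.66 (standard error, SE, 0.15, adjusted p = 0.000599) for GLIP3 and 5.59 (SE 0.35, adjusted p = 0.000696) for YLS9. The others were AT3G28580, AT2G38823, AT1G76250, AT1G17147 and AT1G55230, with log2 fold changes of 2.67 to 5.88.

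The strongest rises were in genes nearly silent in DMSO seedlings. Among called genes with a mean of at least 5 CPM, the 10 with the largest rise had log2 fold changes of 7.65 to 8.96. Of these, 5, AT5G55150, AT3G54530, AT5G24640, AT3G54520 and AT4G12735, are annotated as uncharacterized or, for the first, as an F-box protein. AT3G54530 (chr3:20185966-20187637, TAIR10.1, minus strand) had 123.1, 67.6 and 124 CPM in NAE 18:2 seedlings and 0.220, 0.398 and 0.0437 CPM in DMSO seedlings (log2 fold change 8.83, SE 0.74, adjusted p = 0.00150). Its neighbour AT3G54520, which overlaps a gene on the other strand, had 37.3, 13.8 and 35.2 CPM, against 0.110, 0.159 and 0.0437 CPM in DMSO seedlings. No NAE 18:2 library overlapped with DMSO seedlings in either gene. AT5G37490, an ARM repeat protein, had 34.7, 22.2 and 33.8 CPM in NAE 18:2 seedlings and at most 0.220 CPM in DMSO seedlings (adjusted p = 0.000767, and 0.00445 with replicates 1 and 3 summed).

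To describe the sequence before these rises, the 250 bases before their annotated starts were read from the RefSeq annotation of TAIR10.1. The mitochondrial dysfunction motif, bound by NAC factors that signal from mitochondria, was searched on both strands as CTTG, 5 bases of any kind and then CAAG or CACG. It was found in 18 of the 141 promoters of genes that rose (12.8%), in 0 of the 43 of genes that fell and in 328 of 27443 promoters of all protein-coding genes (1.195%). The W-box core TTGAC, on either strand, was in 70.9% of promoters of genes that rose, 53.5% of those that fell and 44.9% of all. TGACG was in 31.2% of promoters of genes that rose, 18.6% of those that fell and 18.6% of all, and ACGTG, the core of ABA-responsive elements, in 34.8%, 34.9% and 22.9%. These are matches of letters, not sites shown to be bound, and windows may overlap between neighbouring genes. Among the 31 named genes that rose, 5 promoters held the mitochondrial motif. The windows of AOX1A, BCS1, NDB4, ABCG40 and UGT74E2, described below, held no match. The 5 promoters with a match are printed 5′ to 3′ on the strand of the gene, with the motif in capitals. Each ends at the base before the annotated start.
AT5G55150 (chr5:22383393-22383642, minus strand): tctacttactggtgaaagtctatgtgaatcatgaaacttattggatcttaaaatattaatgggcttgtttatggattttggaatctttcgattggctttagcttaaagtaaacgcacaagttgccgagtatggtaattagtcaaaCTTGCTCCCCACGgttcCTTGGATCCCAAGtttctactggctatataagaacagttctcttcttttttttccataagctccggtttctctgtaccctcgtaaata
AT5G24640 (chr5:8436102-8436351, plus strand): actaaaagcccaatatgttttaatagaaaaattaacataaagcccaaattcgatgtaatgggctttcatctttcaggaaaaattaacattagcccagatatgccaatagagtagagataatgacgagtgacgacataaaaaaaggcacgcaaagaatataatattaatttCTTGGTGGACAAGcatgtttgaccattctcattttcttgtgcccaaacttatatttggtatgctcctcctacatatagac
AT2G04050 (chr2:1339469-1339718, minus strand): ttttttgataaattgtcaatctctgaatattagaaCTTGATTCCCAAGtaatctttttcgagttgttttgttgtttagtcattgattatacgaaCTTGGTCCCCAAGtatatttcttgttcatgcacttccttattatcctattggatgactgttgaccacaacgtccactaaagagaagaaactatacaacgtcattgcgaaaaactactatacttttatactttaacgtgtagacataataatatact
AT4G12735 (chr4:7494235-7494484, minus strand): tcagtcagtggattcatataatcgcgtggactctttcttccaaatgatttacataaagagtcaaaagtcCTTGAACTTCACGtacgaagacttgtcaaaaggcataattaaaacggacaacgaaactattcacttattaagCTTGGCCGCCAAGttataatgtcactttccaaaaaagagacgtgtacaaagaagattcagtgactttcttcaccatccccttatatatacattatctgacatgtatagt
NAC044 (chr3:228825-229074, plus strand): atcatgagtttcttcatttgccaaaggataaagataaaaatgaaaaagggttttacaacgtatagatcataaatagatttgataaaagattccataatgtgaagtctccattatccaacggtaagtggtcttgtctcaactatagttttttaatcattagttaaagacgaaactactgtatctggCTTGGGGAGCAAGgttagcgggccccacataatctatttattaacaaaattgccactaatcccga
AT5G55150, AT2G04050 and AT4G12735 held 2 matches each, and those of AT5G55150 began 105 and 88 bases before the start. The genes of the first 4 sequences rose by log2 fold changes of 7.94 to 8.96.

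Conjugating enzymes and exporters were among the rises. Of 38 tested glutathione S-transferase genes of the tau and phi classes, which join glutathione to reactive compounds, 8 rose and 0 fell, against a background of 0.674%. At an unadjusted p under 0.05, 19 of the 38 were higher and 6 lower, against 17.1% and 13.8% of all genes. Their median log2 fold change was 0.67, against -0.03 over all genes tested, and 3 remained called with replicates 1 and 3 summed. GSTU25 (chr1:5872024-5873124, plus strand) had 550, 491 and 547 CPM in NAE 18:2 seedlings and 25.0, 21.0 and 16.9 CPM in DMSO seedlings. Its 3 NAE 18:2 libraries nearly coincided, replicate 2 included (log2 fold change 4.65, SE 0.31, adjusted p = 0.000696). GSTU3 (AT2G29470) had 57.1, 22.1 and 59.0 CPM against 0.110, 0.159 and 0.0874 CPM in DMSO seedlings (log2 fold change 8.53, SE 0.75, adjusted p = 0.00187). GSTU9 and GSTU24 rose by 5.83 and 4.39 on the log2 scale. GSTU24 and GSTU25 are adjacent genes of like sequence, and how the counting shared reads between such copies is not given in the sources used here.

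Of 55 tested glucosyltransferase and MATE exporter genes, 6 rose, against a background of 0.674%, and 0 fell. At an unadjusted p under 0.05, 27 of them were higher and 12 lower. MATE proteins export small organic compounds. AT2G04050 had 712, 184 and 723 CPM in NAE 18:2 seedlings and 1.68, 1.63 and 1.71 CPM in DMSO seedlings, with replicate 2 the lowest of its group and far above every DMSO library. Its log2 fold change was 8.33 (SE 0.98, adjusted p = 0.00621, and 0.0264 with replicates 1 and 3 summed). AT2G04070, a MATE gene of the same cluster, had 23.58, 44.7 and 25.1 CPM against 0.0366, 0.239 and 0 CPM in DMSO seedlings, highest in replicate 2 (adjusted p = 0.00103, and 0.00581 with replicates summed). Reads may have been shared between these similar MATE genes. UGT74E2, which glucosylates the auxin indole-3-butyric acid, had 1914, 405 and 1993 CPM in NAE 18:2 seedlings and 6.55, 9.31 and 6.95 CPM in DMSO seedlings (log2 fold change 7.56, SE 0.95, adjusted p = 0.00732). UGT73B4 rose by 4.89 on the log2 scale, and its annotated span overlaps that of a neighbouring glucosyltransferase gene on the same strand.

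ABCG40 (chr1:5331858-5338326, minus strand), a plasma membrane transporter that imports ABA among other substrates, had 2088, 416 and 2086 CPM in NAE 18:2 seedlings and 8.31, 6.09 and 5.46 CPM in DMSO seedlings. All NAE 18:2 libraries lay far above DMSO seedlings, and replicate 2 was the lowest of them. Its log2 fold change was 7.85 (SE 1.01, adjusted p = 0.00737), and the adjusted p was 0.0304 with replicates 1 and 3 summed. ABCB4, an auxin transporter of the root, had 2071, 737 and 2063 CPM against 119, 88.0 and 84.4 CPM in DMSO seedlings and did not pass the threshold (adjusted p = 0.0115).

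Genes of alternative respiration and mitochondrial stress shared the pattern. Of 18 tested, 3 rose and 0 fell, against 0.674% and 0.206% of all genes, with a median log2 fold change of 2.21. AOX1A (chr3:7906521-7908746, plus strand), the main stress-induced alternative oxidase, had 997, 300 and 1003 CPM in NAE 18:2 seedlings and 15.8, 18.5 and 14.4 CPM in DMSO seedlings (log2 fold change 5.56, SE 0.71, adjusted p = 0.00732). BCS1, an AAA ATPase of the outer mitochondrial membrane, had 405, 128 and 390 CPM against 10.3, 11.5 and 10.3 CPM in DMSO seedlings (log2 fold change 4.84, adjusted p = 0.00902). NDB4, an external NAD(P)H dehydrogenase, rose by 3.24 on the log2 scale (adjusted p = 0.00969). None of the 3 stayed called with replicates 1 and 3 summed (adjusted p = 0.0304 to 0.0379).

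**Figure D3:**
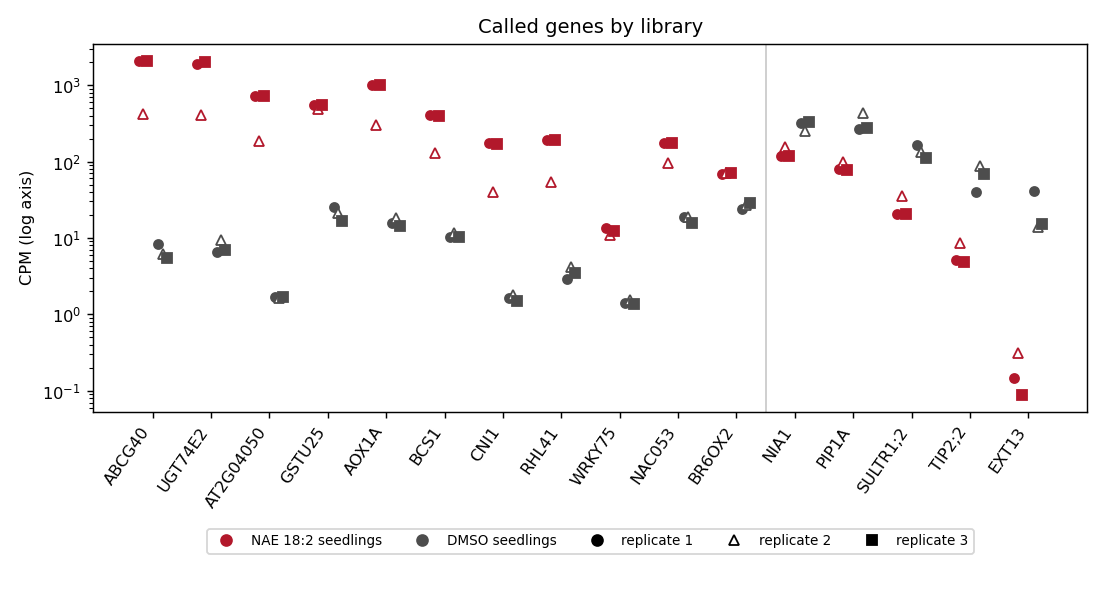
Level of 16 called genes in each library, in CPM on a log axis, with NAE 18:2 seedlings to the left of DMSO seedlings for each gene. Circles, open triangles and squares are replicates 1, 2 and 3, and a level of 0 is not drawn. Genes left of the line rose, and in most of them NAE 18:2 replicate 2 lay between the other NAE 18:2 libraries and DMSO seedlings, as for ABCG40 with 416 against 2088 and 2086 CPM.

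Stress-linked transcription factors were next. Of 15 tested stress NAC genes 3 rose, of 58 WRKY genes 3, of 15 defense ERF genes 1 and of 8 ZAT and AZF zinc finger genes 1, and none of these fell. Of all genes tested, 0.674% rose and 0.206% fell. The median log2 fold changes were 2.80, 0.47, 2.72 and 3.64, against -0.03 over all genes tested. At an unadjusted p under 0.05, 12 of the NAC, 27 of the WRKY, 14 of the ERF and 6 of the zinc finger genes were higher, against 17.1% of all genes, and 0, 5, 1 and 0 of them were lower, against 13.8%. WRKY75, which promotes senescence and responds to phosphate starvation, had 13.6, 10.9 and 12.2 CPM in NAE 18:2 seedlings and 1.43, 1.55 and 1.35 CPM in DMSO seedlings. The 3 NAE 18:2 libraries agreed closely here (log2 fold change 3.07, SE 0.25, adjusted p = 0.00140, and 0.00862 with replicates summed). NAC044, which acts in the response to DNA damage, behaved alike, with 12.8, 11.3 and 11.9 CPM against 1.83, 1.51 and 1.57 CPM in DMSO seedlings (log2 fold change 2.86, adjusted p = 0.000927). NAC053, a regulator of proteasome genes, had 176, 96.0 and 174 CPM in NAE 18:2 seedlings and 19.1, 19.0 and 15.7 CPM in DMSO seedlings (log2 fold change 3.05, adjusted p = 0.00952). RHL41, also named ZAT12, a zinc finger protein of oxidative and light stress, had 194, 54.0 and 193 CPM against 2.89, 4.18 and 3.50 CPM in DMSO seedlings. Its log2 fold change was 5.38 (SE 0.76, adjusted p = 0.00978). ERF6, WRKY45, WRKY8 and ANAC087 rose by 2.72 to 4.69 on the log2 scale.

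Of 35 tested genes of chitin and pattern perception 1 rose, against 0.674% of all genes. At an unadjusted p under 0.05, 24 were higher and 0 lower, against 17.1% and 13.8% of all genes. The median log2 fold change of the 35 was 1.51. The call was CNI1 (ATL31), a ubiquitin ligase of carbon and nitrogen balance and defense, with 174, 40.3 and 171 CPM in NAE 18:2 seedlings and 1.65, 1.79 and 1.49 CPM in DMSO seedlings (log2 fold change 6.28, SE 0.86, adjusted p = 0.00910). LYK5, the major chitin receptor, had 58.0, 13.03 and 58.9 CPM against 5.09, 4.22 and 3.76 CPM in DMSO seedlings (adjusted p = 0.0378). CERK1, its co-receptor, had 67.3, 35.2 and 72.9 CPM in NAE 18:2 seedlings and 24.4, 22.4 and 21.6 CPM in DMSO seedlings (adjusted p = 0.0796). Neither was called, and the groups did not overlap in either. With the root share as a covariate, the log2 fold changes of LYK5 and CERK1 were -0.053 and -0.23. Within NAE 18:2 seedlings this covariate mainly sets replicate 2 apart from replicates 1 and 3. Root share and strength of response therefore cannot be told apart in that fit. Computed from DMSO organ levels at each library's root and cotyledon shares, the log2 differences would be 0.0082 and -0.56. The measured ones were 3.285 and 1.355. Without NAE 18:2 replicate 2, 9 of the 35 genes were called higher, against 3.83% of all genes tested.

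Single rises were found in the salicylic acid, ethylene, tryptophan-derived defense and brassinosteroid lists, of 15, 12, 14 and 14 tested genes. Of all genes tested, 0.674% rose. At an unadjusted p under 0.05, 7, 6, 5 and 4 members were higher and 1, 3, 6 and 4 lower. Of all genes, 17.1% were higher and 13.8% lower at that level. Median log2 fold changes of the lists were 0.93, 0.76, -0.45 and 0.03. PR5, a pathogenesis-related protein, had 2.48, 3.31 and 3.04 CPM in NAE 18:2 seedlings and 0.256, 0.557 and 0.437 CPM in DMSO seedlings (adjusted p = 0.00641). ACS11, a synthase of the ethylene precursor, had 3.52, 3.37 and 4.00 CPM against 0.586, 0.517 and 0.612 CPM in DMSO seedlings (adjusted p = 0.00368). MYB51, a regulator of indole glucosinolates, rose by 2.42 on the log2 scale. BR6OX2, which makes the last steps of brassinosteroid synthesis, had 68.5, 71.3 and 70.5 CPM in NAE 18:2 seedlings and 23.7, 26.8 and 29.0 CPM in DMSO seedlings, all 3 close together in each group. Its log2 fold change was 1.40 (SE 0.12, adjusted p = 0.00144, and 0.00866 with replicates 1 and 3 summed).

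Chaperones and calcium sensors were far lower in NAE 18:2 replicate 2 than in the other NAE 18:2 libraries. Of 46 tested heat shock factor and chaperone genes and 14 calmodulin-like genes none was called, against 0.674% higher and 0.206% lower of all genes. At an unadjusted p under 0.05, 22 chaperone list genes were higher and 4 lower, and 10 calmodulin-like genes higher and 1 lower, against 17.1% and 13.8% of all genes. HSP70 (AT3G12580), a cytosolic chaperone, had 986, 173 and 983 CPM in NAE 18:2 seedlings and 42.4, 40.7 and 26.0 CPM in DMSO seedlings (log2 fold change 4.29, SE 0.87, adjusted p = 0.0281). HSP90.1 had 790, 119 and 810 CPM against 23.8, 25.7 and 18.0 CPM in DMSO seedlings (adjusted p = 0.0291). TCH3, a touch-induced calmodulin-like protein, had 512, 104 and 497 CPM in NAE 18:2 seedlings and 21.96, 22.1 and 19.0 CPM in DMSO seedlings (adjusted p = 0.0238). All NAE 18:2 values lay above DMSO seedlings, and without NAE 18:2 replicate 2 all 3 genes were called, at adjusted p-values of 0.00523 to 0.00635.

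Genes of ABA and of NAE turnover did not pass the threshold by edgeR with all 9 libraries. In that fit none of 11 tested genes of ABA synthesis and breakdown, 31 of ABA receptors and core signaling, 20 ABA and dehydration effectors or 7 of NAE hydrolysis and oxidation was called. Of all genes tested, 0.674% were called higher and 0.206% lower. Calls by DESeq2 were not counted per list. CYP707A1, which inactivates ABA by hydroxylation, came nearest, with 149, 97.2 and 156 CPM in NAE 18:2 seedlings and 56.9, 55.2 and 52.1 CPM in DMSO seedlings (adjusted p = 0.0120). NCED3, the rate-limiting enzyme of ABA synthesis under stress, had 7.33, 5.05 and 6.60 CPM against 1.17, 2.31 and 0.656 CPM in DMSO seedlings (log2 fold change 2.19, SE 0.47, adjusted p = 0.0320). The groups did not overlap in either gene. Over the alternatives, adjusted p-values ran from 1.93e-07 (DESeq2) to 0.344 (edgeR with the root share covariate) for CYP707A1 and from 8.35e-05 to 0.394 under the same settings for NCED3. Of the 11 genes of ABA synthesis and breakdown, whose median log2 fold change was 0.91, 5 were higher and 2 lower at an unadjusted p under 0.05, against 17.1% and 13.8% of all genes. Without NAE 18:2 replicate 2, 3 of the 11 were called higher, against 3.83% of all genes. LOX4, a 13-lipoxygenase, had 29.5, 5.47 and 29.4 CPM in NAE 18:2 seedlings and 4.36, 4.94 and 3.41 CPM in DMSO seedlings (adjusted p = 0.0861), so that replicate 2 was near DMSO seedlings. Over the edgeR and DESeq2 alternatives the adjusted p of LOX4 ran from 0.00518 to 0.515. ABI5 and NAC072 (RD26), factors of the ABA response, had log2 fold changes of 1.00 and 1.02 (adjusted p = 0.105 and 0.0868), and AAO3, which makes ABA from its aldehyde, 0.91 (adjusted p = 0.124).

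The falls were mainly in genes of the root. Of the 43 genes that fell, 38 (88.4%) had at least 4 times the level in DMSO roots of that in DMSO cotyledons at an adjusted p under 0.01, and so did 12.02% of all genes tested. The same class took 58 of the 141 rises (41.1%). Its median log2 fold change in NAE 18:2 seedlings was -1.01, against -0.03 over all genes tested and -0.03 over the 11294 genes whose DMSO organs differed by less than 2-fold. Levels were also computed from the DMSO organs at each library's root and cotyledon shares, with 0.1 CPM added. On these shares alone the 43 genes would have a median log2 difference of -1.37, with the measured median at -2.58, and 26 of them were measured lower by more than a further 2-fold. The 141 genes that rose would have a median of -0.61 and a highest value of 0.14, with a measured median of 3.87. Both sets were picked for their change in these same libraries, so an excess over the computed value was partly set by that choice. Over all 20911 genes tested the computed median was -0.20 and the measured median -0.022. Of these, 577 were measured lower and 2719 higher than computed by more than 2-fold. This computation was chosen after the data were seen. The marker genes that set the shares are among the genes computed.

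Root hair and wall genes led the falls. Of 49 tested root hair genes 2 fell, against 0.206% of all genes. In 36 of the 49, all NAE 18:2 libraries were lower than any DMSO library, against 21.4% of all genes. The median log2 fold change of the 49 was -2.01. Of the 49, 38 were in the root-enriched class, whose median as a whole was -1.01. The share of that class without overlap was not counted. XTH13 (chr5:23302787-23304095, minus strand), a xyloglucan endotransglucosylase of elongating walls, had 0.0370, 0.0281 and 0 CPM in NAE 18:2 seedlings, from 2 counts in all, and 19.0, 3.50 and 4.98 CPM in DMSO seedlings, from 722 counts. It was 409-fold lower, with a 95% exact interval of 113 to 3384 that covers counting error only, and 179.6-fold lower without DMSO replicate 1, which held 520 of the 722 counts, and its adjusted p was 0.00745. XTH12 had 0.148, 0.197 and 0.132 CPM against 15.3, 4.22 and 6.29 CPM in DMSO seedlings. In both genes, which are neighbours of like sequence, DMSO replicate 1 was the highest library. Of 26 extensins and proline-rich wall proteins 2 fell, EXT13 (AT5G35190) and EXT6 (AT2G24980), against 0.206% of all genes. EXT13 had 0.148, 0.309 and 0.0880 CPM in NAE 18:2 seedlings and 41.3, 14.1 and 15.4 CPM in DMSO seedlings (log2 fold change -6.91, SE 0.79, adjusted p = 0.00607). AT1G34510, the only class III peroxidase called among 61 tested, had 0.111, 0.168 and 0.264 CPM against 11.1, 4.06 and 5.68 CPM in DMSO seedlings. The summed root hair markers given above were lower alongside these genes, with 0 of 7 called, and their part in the result was not tested.

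Among wall gene families and the auxin-responsive SAUR genes, all without a call, medians were also below 0. The medians were -1.06 for 25 expansins, -0.72 for 16 fasciclin-like arabinogalactan proteins, -0.61 for 9 cellulose synthases and -0.72 for 59 SAUR genes. CESA7 (IRX3), a cellulose synthase of the secondary wall, had 5.33, 5.75 and 5.81 CPM in NAE 18:2 seedlings and 10.1, 8.88 and 11.0 CPM in DMSO seedlings, with tight replicates on both sides (log2 fold change -0.83, SE 0.13, adjusted p = 0.0120). Its log2 fold change was 0.06 in dissected roots and -0.05 in cotyledons. EXPA4, a wall-loosening expansin, had 75.1, 117 and 75.7 CPM against 137, 164 and 133 CPM in DMSO seedlings (adjusted p = 0.0514).

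Some water and nutrient transport genes fell. Of 26 tested aquaporins, which are water channels, 2 fell, against 0.206% of all genes. TIP2;2, a vacuolar aquaporin, had 5.07, 8.70 and 4.88 CPM in NAE 18:2 seedlings and 39.6, 87.0 and 67.8 CPM in DMSO seedlings (log2 fold change -3.38, SE 0.45, adjusted p = 0.00836). PIP1A, of the plasma membrane, had 80.4, 98.6 and 77.5 CPM against 264, 426 and 271 CPM in DMSO seedlings (log2 fold change -1.91, adjusted p = 0.00829). SULTR1;2, the main root sulfate importer, had 20.6, 35.2 and 20.3 CPM in NAE 18:2 seedlings and 166, 134 and 113 CPM in DMSO seedlings (log2 fold change -2.44, adjusted p = 0.00829). 4CL2, of general phenylpropanoid synthesis, fell by 1.83 on the log2 scale, and TPPB, a trehalose phosphate phosphatase, by 3.06. In all of these NAE 18:2 replicate 2, with the higher root share, was the NAE 18:2 library nearest to DMSO seedlings.

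The 5 falls outside the root-enriched class were AMT1;2, NIA1, IPT3, SWEET17 and AT4G29700, and they were singled out after their values were seen. NIA1, a nitrate reductase with more transcript in DMSO cotyledons than in DMSO roots, had 119, 156 and 119 CPM in NAE 18:2 seedlings and 324, 248 and 325 CPM in DMSO seedlings, without overlap (log2 fold change -1.19, SE 0.17, adjusted p = 0.00969). From the organ shares alone its log2 difference would be 0.12. AMT1;2, an ammonium transporter, had 7.96, 11.1 and 9.37 CPM against 38.2, 44.0 and 32.6 CPM in DMSO seedlings (log2 fold change -2.02, adjusted p = 0.00212). IPT3, a nitrate-responsive cytokinin synthesis enzyme, had 2.52, 4.13 and 2.42 CPM in NAE 18:2 seedlings and 8.93, 11.9 and 10.8 CPM in DMSO seedlings (log2 fold change -1.80, adjusted p = 0.00978). SWEET17, a vacuolar fructose transporter, and AT4G29700 fell by 1.28 and 1.198 on the log2 scale.

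Photosynthesis, greening and clock lists had no call. Of 51 nuclear photosynthesis genes, 24 greening and chlorophyll synthesis genes and 14 circadian clock genes none was called, with median log2 fold changes of 0.30, 0.07 and -0.0043. Of all genes tested, 0.674% were called higher and 0.206% lower. The greening factors CGA1 and GNC had log2 fold changes of -0.64 (SE 0.33) and -0.40 (SE 0.28). PSAH-1, a subunit of photosystem I, had 418, 292 and 428 CPM in NAE 18:2 seedlings and 287, 260 and 277 CPM in DMSO seedlings (adjusted p = 0.136), and it was highest in the libraries with the least root signal. HEMA2, a glutamyl-tRNA reductase of heme and chlorophyll synthesis, had 143, 44.9 and 144 CPM against 25.3, 20.0 and 22.3 CPM in DMSO seedlings (adjusted p = 0.0495). SPT, a growth-repressing bHLH factor of seedlings, had 157, 70.8 and 159 CPM in NAE 18:2 seedlings and 34.5, 37.6 and 41.4 CPM in DMSO seedlings (adjusted p = 0.0381). TCH3, CESA7, ABCB4, AAO3 and PSAH-1 overlap a gene on the other strand, and reads of the partners cannot be told apart where the counting ignored strand.

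**Figure D4:**
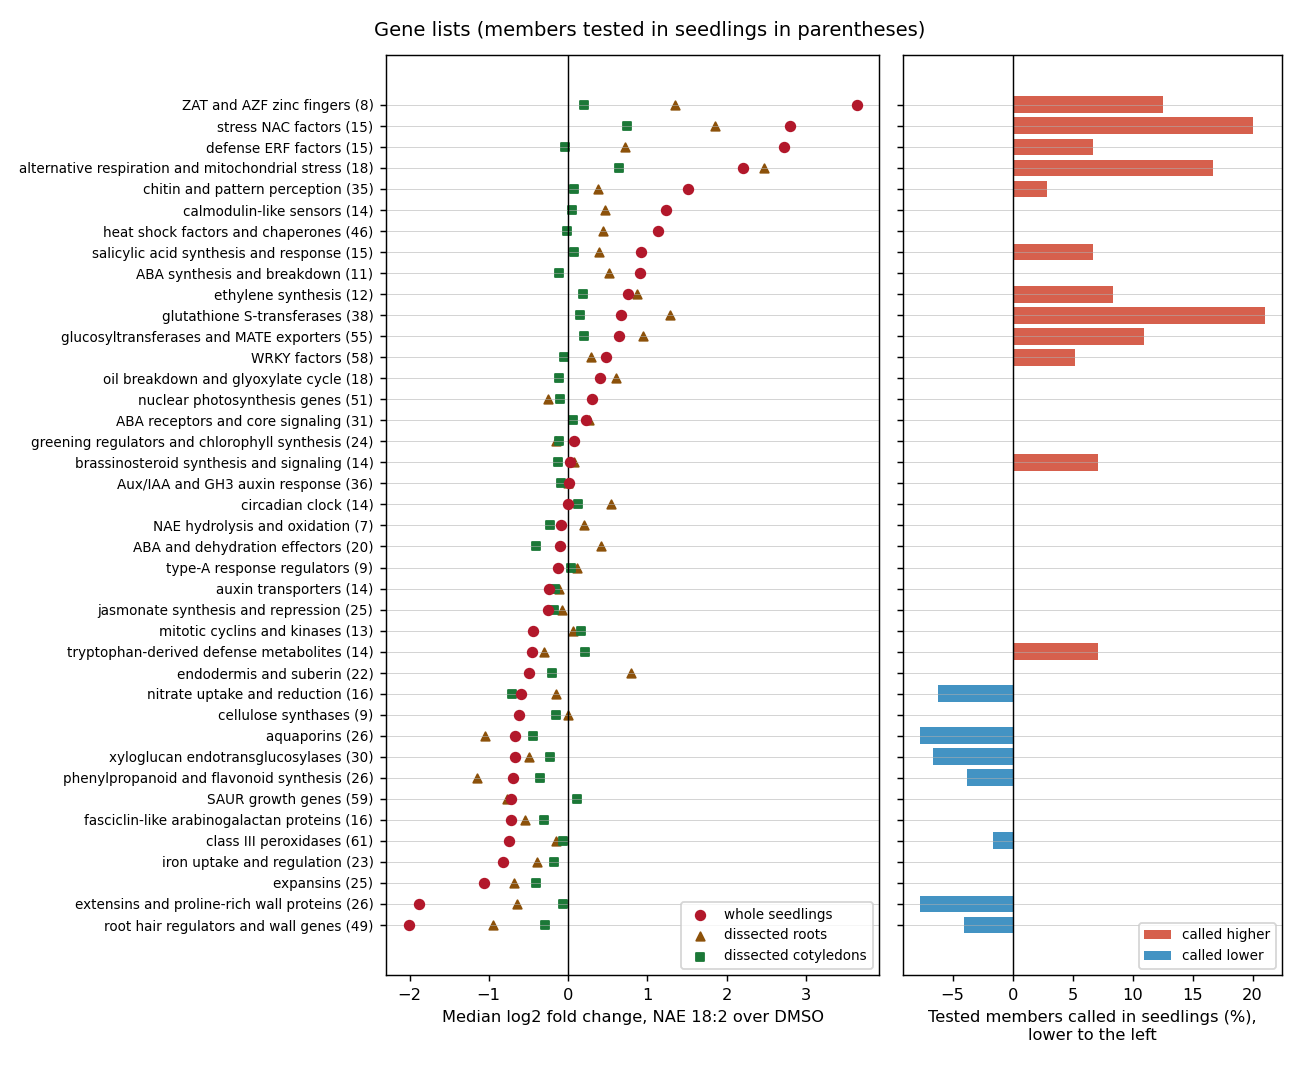
Left, median log2 fold change of NAE 18:2 over DMSO in each gene list for whole seedlings, dissected roots and dissected cotyledons. Right, the share of tested members called in whole seedlings, with falls drawn to the left. Medians in seedlings ran from 3.64 for ZAT and AZF zinc fingers to -2.01 for root hair genes.

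Dissected organs, which use other DMSO libraries, were set beside the seedlings. Of the 141 genes that rose in seedlings, 129 (91.5%) were also called higher in NAE 18:2 roots, where 5.68% of genes tested were, and 31 (21.99%) in NAE 18:2 cotyledons, where 0.617% were. They were 11.3% of the 1143 rises in roots and 25.8% of the 120 rises in cotyledons. Of the 43 falls, 34 (79.1%) were called lower in roots, where 3.03% of genes tested were. In cotyledons 1 of them (2.33%) was called lower, where 0.108% of genes tested were. The median log2 fold change of the rises was 4.06 in seedlings, 3.60 in roots and 1.73 in cotyledons, and that of the falls was -2.64, -2.53 and -0.56. In neither organ were 11 rises and 8 falls called.

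**Figure D5:**
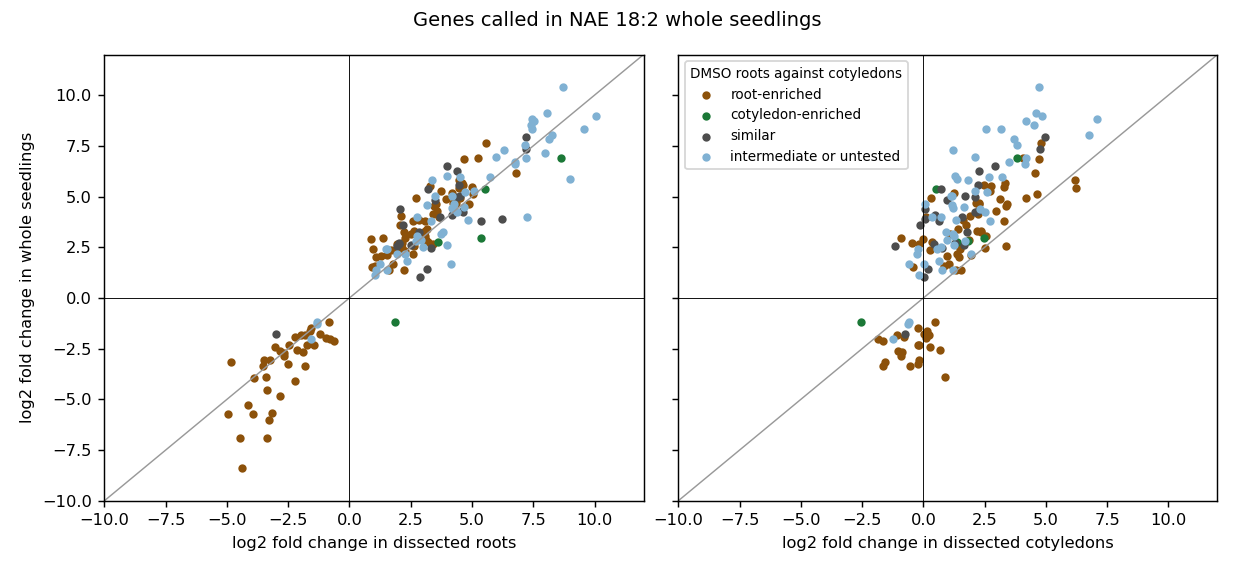
Log2 fold change in NAE 18:2 whole seedlings (y axis) against that in dissected roots (left) and dissected cotyledons (right) for the called genes tested in each organ, coloured by whether DMSO roots or DMSO cotyledons held more transcript. The diagonal marks equal change. Among the 43 falls, 1 was above 0 in roots (NIA1, 1.84), and 140 of 140 rises tested in roots were above 0.

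Whether the effect differed between seedlings and an organ was tested with interaction terms over the 27 libraries. The NAE 18:2 effect was higher in seedlings than in roots for 75 genes and lower for 35 of 21643 tested (0.347% and 0.162%), and higher than in cotyledons for 332 and lower for 59 (1.53% and 0.273%). Of the genes described above, NIA1 and AT2G38823 differed from roots. AT2G38823 had a log2 fold change of 3.91 in seedlings and 6.23 in roots, a difference of -2.35 (adjusted p = 0.00393). For NIA1 the log2 fold change was -1.19 in seedlings, 1.84 in roots (adjusted p = 0.00647) and -2.55 in cotyledons (adjusted p = 0.00652), a difference of -3.06 between seedlings and roots (adjusted p = 0.00229). Against cotyledons, the largest differences among named genes were for HSP70, at 5.63 on the log2 scale (4.29 in seedlings, -1.30 in cotyledons, adjusted p of the difference 0.00479), and CML37, at 5.30 (5.19 in seedlings, -0.09 in cotyledons, adjusted p of the difference 0.00229). ERF6 rose in seedlings and had a log2 fold change of -0.13 in cotyledons, a difference of 3.75 (adjusted p = 0.000396). NCED3 differed by 2.42 (adjusted p = 0.00825). In HSP70, CML37, ERF6 and NCED3 both dissected DMSO organs held more transcript than DMSO seedlings. Mean levels in DMSO seedlings, roots and cotyledons were 3.68, 34.7 and 33.8 CPM for ERF6 and 36.35, 95.9 and 337 CPM for HSP70. They were 1.01, 3.92 and 7.76 CPM for CML37 and 1.38, 4.65 and 3.76 CPM for NCED3. The part of these unequal DMSO levels in the differences was not tested. The lower root share of NAE 18:2 seedlings and a weaker effect in cotyledons cannot be told apart for the falls TIP2;2, TPPB and SULTR1;2, which differed from cotyledons by -2.81, -2.84 and -2.68 on the log2 scale. Without NAE 18:2 replicate 2 the 4 interaction counts were 243, 510, 1122 and 437, and with replicates 1 and 3 summed 37, 14, 41 and 10.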

How the data were processed

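Stranded messenger RNA libraries were sequenced with paired 75 bp reads. The authors trimmed the reads and aligned them with STAR to TAIR10, and they used DESeq2. The program, annotation and strand setting of the counting are not given in the sources used here. The authors deposited raw counts of 32833 genes, as whole numbers. A second deposited table of the same counts divided by size factors was not used. Groups and replicate numbers came from the sample labels.

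The 9 whole-seedling libraries entered a robust, two-sided quasi-likelihood test of edgeR 4.0.16 under R 4.3.3, after filterByExpr and TMM scaling, with treatment as the only term. Calls required a log2 fold change beyond 1 in either direction and a Benjamini-Hochberg value below 0.01. NAE 18:3 seedlings entered only to estimate the spread. The organ interactions used all 27 libraries. DESeq2 1.42.0 was an alternative. CPM was scaled by TMM over 27 libraries. Root share markers had at least 10 CPM in DMSO roots and a log2 ratio to DMSO cotyledons over 4. The fits were tested on simulated data. Gene names and promoters came from the RefSeq annotation of TAIR10.1, another release than TAIR10. The count table holds no coordinates.

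Named genes were the 10 called genes of largest change in each direction (mean level 5 CPM or more, groups not overlapping), up to 4 called members per list and direction, the 2 of smallest p in a list without calls, and 12 genes the study names. Not all are written out, and a gene the rule selects is not reported here. Members, lists and tests were chosen with earlier results of these data known. Alternatives were other normalizations, no filter, DESeq2, only the 6 libraries, summed replicates, the root share as a covariate, the replicate block and each library left out.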

Additional observations from a re-analysis of the deposited data

Results flagged for a closer look

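The NAE 18:2 effect differed between whole seedlings and dissected organs by the edgeR interaction test. It was higher in seedlings than in roots for 75 genes and lower for 35, and higher than in cotyledons for 332 and lower for 59. Among genes described above, the effect on NIA1 in seedlings minus that in roots was -3.06 on the log2 scale. It was -2.35 for AT2G38823. For the effect in seedlings minus that in cotyledons, the log2 difference was 5.63 for HSP70, 5.22 for HSP90.1, 5.305 for CML37, 4.53 for TCH3, 5.202 for AT2G04050 and 4.17 for ABCG40. It was 4.68 for RHL41, 4.04 for CNI1, 3.93 for BCS1, 3.745 for ERF6, 3.14 for LYK5 and 3.104 for CYP94B3, a jasmonate-inactivating enzyme. It was 2.42 for NCED3, 1.65 for PIF3, a light-signaling factor, and 1.43 for ABI1, a phosphatase that restrains ABA signaling. It was 3.89 for AT2G38823, 2.895 for AT3G28580, 2.83 for AT1G17147 and 2.465 for AT1G76250. Negative differences were found for AT3G02620, a desaturase (-3.03), TPPB (-2.84), TIP2;2 (-2.81), SULTR1;2 (-2.68) and AT2G46690, a SAUR gene (-2.215). In HSP70, HSP90.1, CML37, TCH3, RHL41, CNI1, BCS1 and ERF6 the mean DMSO level was higher in both dissected organs than in whole seedlings. It lay between those of the organs in ABCG40, PIF3 and the genes with negative differences. The parts of the unequal root shares and of the unequal DMSO levels in these differences were not tested.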

How the results depend on the processing

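The seedling counts of 141 higher and 43 lower kept within 1.5 times under RLE, upper quartile (higher 197, lower 41) and no filter. They were 1401 and 457 with DESeq2, 798 and 215 with DESeq2 and replicates 1 and 3 summed (chosen after seeing the data), 25 and 0 with edgeR and the same sum, 28 and 0 with the root share covariate, 309 higher with only the 6 libraries, and 1172 and 521 at an adjusted p under 0.05 without a fold threshold. Leaving out 1 library gave 10 to 806 higher and 0 to 372 lower, 19 to 243 and 9 to 510 for seedlings minus roots, and 20 to 1122 and 8 to 437 for seedlings minus cotyledons. Summed replicates gave 37 and 14 against roots and 41 and 10 against cotyledons. Correlations between treated and DMSO libraries of the same replicate number were -0.00867, 0.086 and 0.0958. Whether replicate numbers paired the libraries could not be decided from them, because treated replicates 1 and 3 were nearly equal. These replicates gave -0.00867 and 0.0022 with DMSO replicate 1, and 0.0922 and 0.0958 with DMSO replicate 3. With the replicate block, the seedling counts were 4 and 0 (edgeR; 2986 and 2259 at an unadjusted p under 0.05), and those against cotyledons 172 and 38.

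Of the log2 fold changes of 97 named genes under 15 settings, 1042 values kept direction and side of the threshold, 337 lost and 61 gained the call, and 15 turned sign, all with the root share covariate: ABI2 -0.22, LOX4 -1.26, LOX5 0.70, HEMA2 -0.27, PIF3 -0.14, PSAH-1 -0.27, PSAE-2 -0.27, GI 0.26, ACX2 -0.44, AAO3 -0.49, ABI5 -0.22, LYK5 -0.053, CERK1 -0.23, RD26 -0.26 and GNC 0.026. The causes were not tested. The covariate follows treatment closely in 6 libraries. Counts of a few reads limit the folds of root hair genes.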
